A study of Danio rerio with 11 samples.

Results

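Oocytes grow in zebrafish from stage I, when the cell is in primary growth and gathers its germ plasm in the Balbiani body, to stage II, when cortical alveoli form and the egg coat thickens. The oocyte is arrested in meiosis throughout, and much of the RNA it makes is stored for the embryo. The comparison described here asked whether the change between the stages was the same in oocytes of znf706 mutants and of wild type (WT). znf706 encodes a small zinc finger protein, and the title of the study concerns germ plasm and primordial germ cells. For every gene the change from stage I to stage II was taken on the log2(FPKM + 1) scale in each genotype, and the WT change was subtracted from the mutant change. This difference is called the interaction: positive where the transcript gained more, or fell less, with stage in mutants than in WT. It could be tested for 13862 of the 31952 genes used, those with at least 1 FPKM (fragments scaled for transcript length and library size) in at least 2 libraries. All 8 RNA-seq libraries of the 11 samples were used, and the 3 CUT&Tag libraries were not analysed here.

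The 8 libraries form 4 groups of 2: mutant stage II, mutant stage I, WT stage II and WT stage I. The mutants carry the CRISPR/Cas9 allele tsu7d on both chromosomes, and their libraries have the genotype label MZznf706. All fish were females 3 months of age. Ovaries were digested enzymatically, oocytes were picked by pipette, and polyadenylated RNA was taken from about 150 oocytes per stage II library and about 600 per stage I library. The series text calls the 2 libraries of a group biological replicates, without saying how many fish each came from, so p-values measure the spread between these libraries. Libraries held 653659 to 899582 summed FPKM and 11992 to 12691 genes at 1 FPKM or more. The 10 highest genes took 3.61% to 4.51% of the sum at stage II and 9.16% to 10.4% at stage I, in both genotypes. In bulk RNA, fewer transcripts per cell and fewer cells that hold them cannot be told apart.

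The stage change differed between the genotypes for a large share of genes. The interaction passed a Benjamini-Hochberg adjusted p of 0.05 (limma) for 5039 of 13862 genes (36.4%), with 3235 higher (23.3%) and 1804 lower (13.0%) in mutants. The direction of these calls depends on the scaling: 64.2% of them were higher with the deposited FPKM, 47.1% once scaled by median-of-ratios factors and 52.5% when quantile-normalised. The median interaction over all genes was 0.14 as deposited, -0.03 with median-of-ratios scaling and 0.03 with quantile normalization. A call with any sign was kept in all 3 scalings for 4020 genes. Stage changes themselves passed for 9143 genes in mutants (66.0%, 6550 up and 2593 down) and for 8354 genes in WT (60.3%, 5279 up and 3075 down). Their split also turns with the scaling: median-of-ratios gave 4062 up and 4423 down in mutants and 4085 up and 4198 down in WT, and quantile normalization 4620 up and 3613 down in mutants and 4367 up and 3813 down in WT. The stage change in mutants correlated with that in WT at r = 0.392 across the 13862 genes, which are not independent replicates. These stage changes share no library. Of the sum of squares of the log2 values, stage held 43.5%, genotype 29.2%, the interaction 18.2% and the spread between replicates 9.15%.

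Called genes fell into classes by what became of the WT stage change. It was lost for 1211 genes (8.74%): the change was called in WT and not in mutants. It was gained for 1712 genes (12.4%), called in mutants and not in WT. It was reversed for 805 genes (5.81%), called in both genotypes with opposite signs. A further 797 genes (5.75%) changed in the same direction and more strongly in mutants, and 464 (3.35%) less strongly. Neither stage change was called for 50 genes (0.361%). Of the lost genes, 1168 had a mutant change under 0.5 on the log2 scale, and 1662 of the gained genes had a WT change under 0.5. Both changes were at least 2-fold for 143 of the reversed genes. Without any threshold, the stage differences of the genotypes did not overlap for 8425 of 13862 genes (60.8%). The same held for every lost, gained and reversed gene, but these were called from the same values, so it adds no separate support. The class was the same in all 3 scalings for 514 lost, 922 gained and 441 reversed genes.

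**Figure D1:**
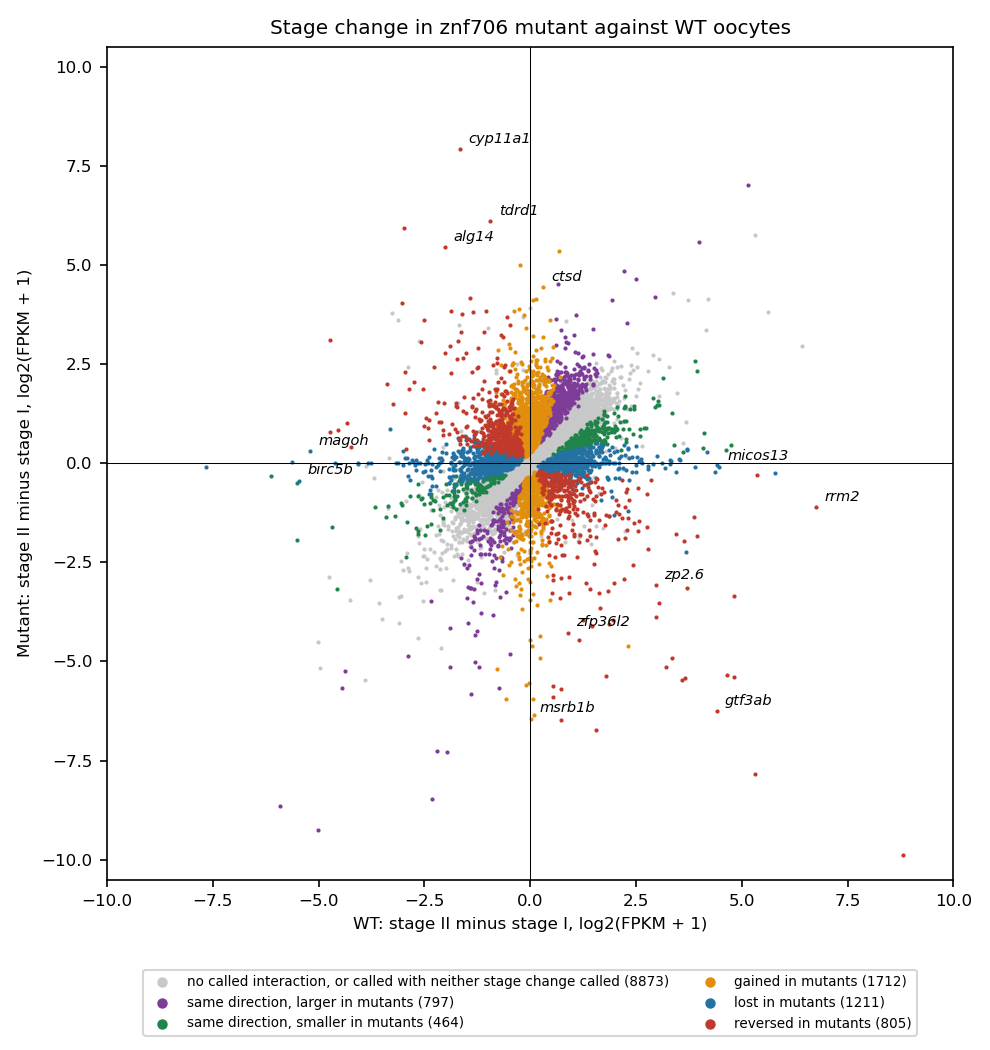
Stage II minus stage I on the log2(FPKM + 1) scale in mutants (vertical axis) against WT (horizontal axis), 1 point per gene, coloured by class. The 805 reversed genes lie in the upper left and lower right of the plot, with cyp11a1, tdrd1 and alg14 rising in mutants and falling in WT, and gtf3ab doing the opposite.

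**Figure D2:**
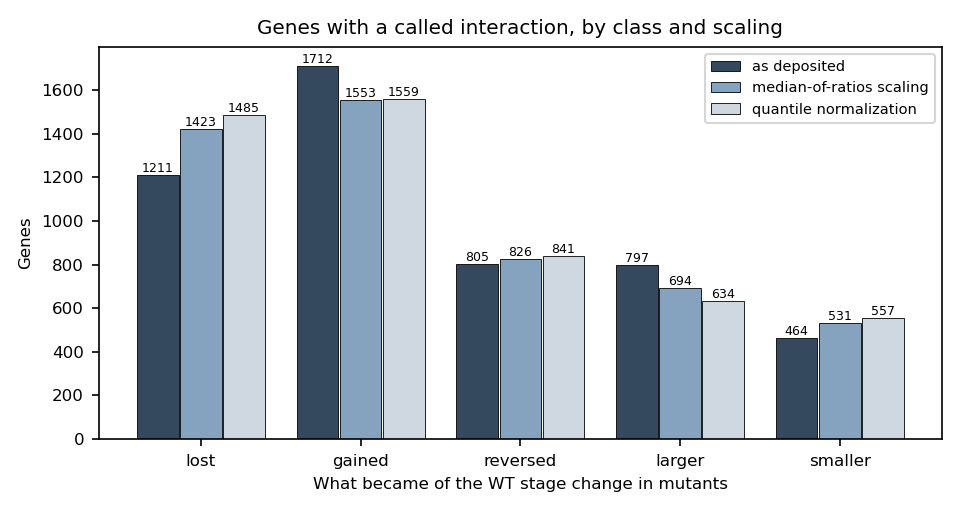
Number of genes in each class (vertical axis) with the FPKM as deposited and under the 2 other scalings. Reversed genes numbered 805 as deposited, 826 with median-of-ratios scaling and 841 with quantile normalization.

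The targeted gene was tested first. znf706 (ENSDARG00000056307) stood at 129 and 142 FPKM in mutant stage II and 181 and 147 FPKM in mutant stage I oocytes. WT libraries held 158 and 143 FPKM at stage II and 232 and 238 FPKM at stage I. It fell with stage in WT (-0.64 on the log2 scale). The mutant change was -0.27, and the interaction missed the threshold (interaction 0.37 ± 0.15, adjusted p = 0.091). It passed without mutant stage I replicate 1 (interaction 0.52, adjusted p = 0.024). The source does not say which part of the transcript the allele alters, so this level does not check the genotype labels.

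Reversed genes that rose in WT and fell in mutants included transcripts high in opposite stages of the 2 genotypes. The 5 with the largest interactions among named genes with at least 5 FPKM in a group of each genotype were gtf3ab, thumpd3, prmt7, foxa and rad52, and all were low in both mutant stage II and WT stage I. gtf3ab (ENSDARG00000071583), a form of transcription factor IIIA, which activates 5S ribosomal RNA genes, stood at 0.134 and 0 FPKM in mutant stage II and 83.8 and 77.1 FPKM in mutant stage I oocytes. WT libraries held 24.9 and 32.2 FPKM at stage II and 0.299 and 0.4698 FPKM at stage I (interaction -10.66 ± 0.24, adjusted p = 1.7e-07). thumpd3, a tRNA methyltransferase gene, stood at 0.0464 and 0.0454 FPKM in mutant stage II and 42.3 and 42.9 FPKM in mutant stage I oocytes. WT libraries held 29.4 and 28.1 FPKM at stage II and 0.0409 and 0.0605 FPKM at stage I (interaction -10.21 ± 0.18, adjusted p = 9.1e-08). Both genes were high in mutant stage I and WT stage II and under 0.5 FPKM elsewhere. prmt7, an arginine methyltransferase gene, was listed at 0 in all 4 libraries of mutant stage II and WT stage I. It stood at 0 and 0 FPKM in mutant stage II and 38.9 and 39.98 FPKM in mutant stage I oocytes. WT libraries held 26.98 and 21.4 FPKM at stage II and 0 and 0 FPKM at stage I (interaction -9.98 ± 0.22, adjusted p = 1.7e-07). An exact 0 in such a table can also be a failed estimate of the level, which was not tested. foxa, a forkhead transcription factor gene, stood at 1.53 and 0.693 FPKM in mutant stage II and 81.7 and 94.7 FPKM in mutant stage I oocytes. WT libraries held 16.7 and 18.5 FPKM at stage II and 0.526 and 0.442 FPKM at stage I (interaction -9.07 ± 0.28, adjusted p = 7.0e-07). rad52, a gene of homologous recombination, stood at 0.791 and 0 FPKM in mutant stage II and 54.8 and 61.05 FPKM in mutant stage I oocytes. WT libraries held 33.6 and 26.8 FPKM at stage II and 1.76 and 1.38 FPKM at stage I (interaction -9.06 ± 0.37, adjusted p = 3.3e-06). The libraries of mutant stage II and WT stage I did not overlap with those of mutant stage I and WT stage II for any of the 5 genes. These genes were chosen for large interactions and for stage differences that do not overlap, so this separation is no added support.

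Reversed genes of the opposite sense fell in WT and rose in mutants. cyp11a1 (ENSDARG00000002347), whose product cleaves the cholesterol side chain in the first step of steroid synthesis, stood at 278 and 261 FPKM in mutant stage II and 0.153 and 0.0626 FPKM in mutant stage I oocytes. WT libraries held 53.5 and 82.4 FPKM at stage II and 221 and 203 FPKM at stage I (interaction 9.59 ± 0.25, adjusted p = 2.7e-07). Its transcript was near 0 in mutant stage I alone. alg14, part of the enzyme that adds the second sugar of the N-glycan precursor, stood at 42.05 and 49.1 FPKM in mutant stage II and 0 and 0.112 FPKM in mutant stage I oocytes. WT libraries held 29.3 and 36.8 FPKM at stage II and 134 and 136 FPKM at stage I (interaction 7.47 ± 0.19, adjusted p = 2.7e-07). tdrd1, a Tudor protein of the piRNA pathway that protects germ cells from transposons, stood at 73.8 and 65.1 FPKM in mutant stage II and 0.0154 and 0.0203 FPKM in mutant stage I oocytes. WT libraries held 30.6 and 26.5 FPKM at stage II and 57.1 and 54.4 FPKM at stage I (interaction 7.05 ± 0.16, adjusted p = 1.7e-07). For all 3 genes, the mutant stage II libraries lay within the range of WT or above it and the mutant stage I libraries lay below. ndrg1b stood at 38.6 and 41.2 FPKM in mutant stage II and 2.88 and 1.88 FPKM in mutant stage I oocytes. WT libraries held 8.54 and 7.04 FPKM at stage II and 50.6 and 47.2 FPKM at stage I (interaction 6.12 ± 0.23, adjusted p = 1.6e-06). nck1a, an adaptor of tyrosine kinase signalling, stood at 28.8 and 28.9 FPKM in mutant stage II and 1.26 and 0.936 FPKM in mutant stage I oocytes. WT libraries held 4.295 and 7.45 FPKM at stage II and 25.1 and 21.8 FPKM at stage I (interaction 5.70 ± 0.31, adjusted p = 1.3e-05). In ndrg1b and nck1a the mutant stage I libraries were again the lowest.

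**Figure D3:**
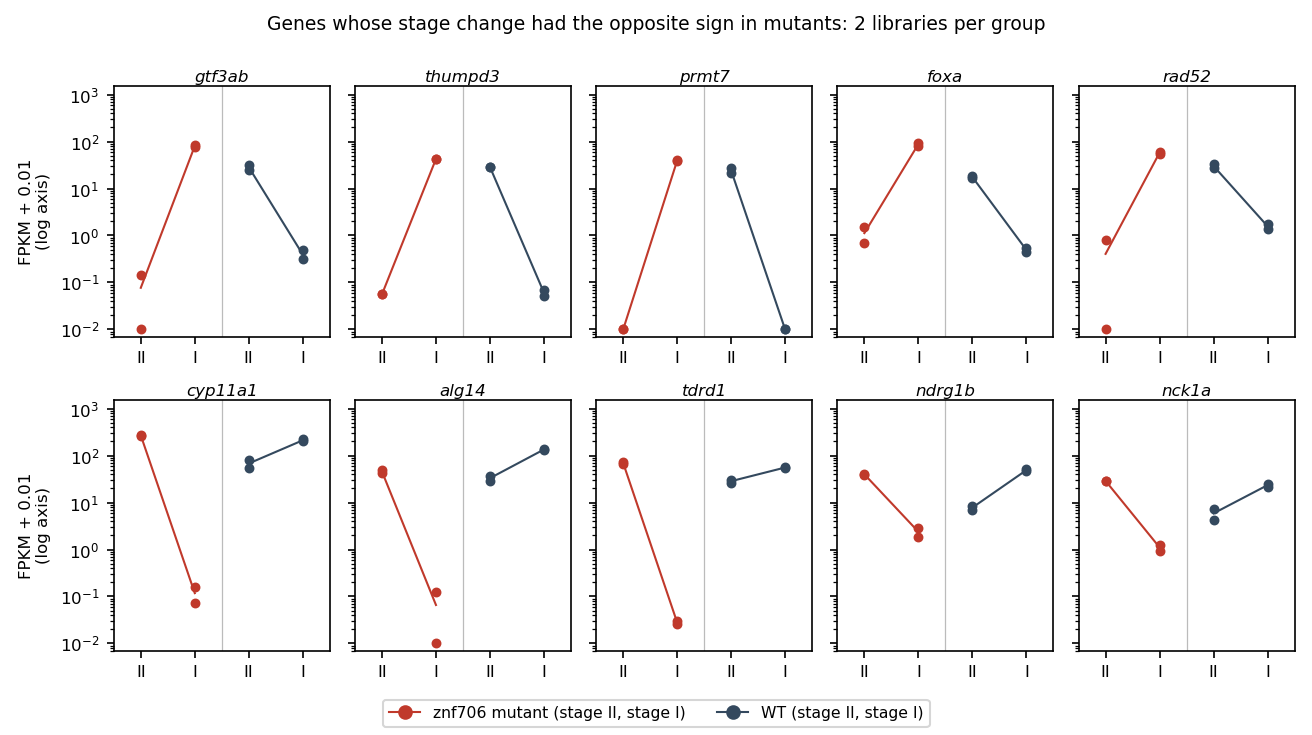
FPKM + 0.01 (log axis) of 10 reversed genes in each library: mutant stage II and I (red), WT stage II and I (blue), lines through group means. They are the 5 largest interactions in each direction among named genes with at least 5 FPKM in a group of each genotype. Larger interactions of 1 direction, such as rrm2, are therefore not all drawn. gtf3ab, thumpd3, prmt7, foxa and rad52 reach no more than 1.76 FPKM in mutant stage II and in WT stage I, while cyp11a1, alg14 and tdrd1 are near 0 in mutant stage I.

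Other reversed genes were low in 1 group or in none. rrm2 (ENSDARG00000078069), a subunit of ribonucleotide reductase, which makes DNA precursors, stood at 349 and 327 FPKM in mutant stage II and 766 and 694 FPKM in mutant stage I oocytes. WT libraries held 283 and 214 FPKM at stage II and 1.07 and 1.51 FPKM at stage I (interaction -7.87 ± 0.20, adjusted p = 2.7e-07), so WT stage I was near 0 while both mutant groups were high. A second gene of the same name (ENSDARG00000020711) was high in WT stage I and had no called interaction (interaction -0.10 ± 0.10, adjusted p = 0.46). The copies summed to 627 and 595 FPKM in mutant stage II, 1484 and 1364 in mutant stage I, 768 and 711 in WT stage II and 1143 and 1189 in WT stage I, so the sum was lower at stage II in both genotypes and was not near 0 in WT stage I. The counting of near-identical copies is uncertain, and the reversal holds for the 1 gene ID only. zp2.6, an egg coat protein gene, stood at 87.7 and 87.1 FPKM in mutant stage II and 742 and 747 FPKM in mutant stage I oocytes. WT libraries held 759 and 692 FPKM at stage II and 84.4 and 99.96 FPKM at stage I (interaction -6.04 ± 0.13, adjusted p = 1.7e-07). zp2.3 of the same family was higher in mutant stage I than in mutant stage II, and in WT stage II than in WT stage I (interaction -2.39 ± 0.21, adjusted p = 1.6e-04). It was gained instead with median-of-ratios scaling. zfp36l2, an RNA-binding protein that destabilises mRNA, stood at 0.589 and 0.506 FPKM in mutant stage II and 27.2 and 30.7 FPKM in mutant stage I oocytes. WT libraries held 47.6 and 50.8 FPKM at stage II and 24.6 and 27.8 FPKM at stage I (interaction -5.16 ± 0.16, adjusted p = 7.0e-07), so only mutant stage II was low. eif1b, which encodes a translation initiation factor, stood at 535 and 511 FPKM in mutant stage II and 1838 and 1748 FPKM in mutant stage I oocytes. WT libraries held 872 and 839 FPKM at stage II and 430.0 and 411 FPKM at stage I (interaction -2.80 ± 0.10, adjusted p = 1.4e-06).

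Some genes that serve protein folding in the endoplasmic reticulum fell in WT and rose in mutants. Of the 22 called members of the list of the unfolded protein response and its chaperones, 7 were reversed, counted in either direction. Among all 5039 called genes 805 were reversed (16%), a description with no test. The called members were split in direction, with 12 higher and 10 lower interactions. ero1a, an oxidase that helps form disulfide bonds, stood at 20.6 and 18.3 FPKM in mutant stage II and 6.02 and 7.12 FPKM in mutant stage I oocytes. WT libraries held 13.3 and 11.5 FPKM at stage II and 45.7 and 42.04 FPKM at stage I (interaction 3.18 ± 0.18, adjusted p = 1.6e-05). dnajb9b, a chaperone partner of BiP, stood at 12.9 and 12.6 FPKM in mutant stage II and 5.28 and 7.55 FPKM in mutant stage I oocytes. WT libraries held 52.5 and 48.8 FPKM at stage II and 139 and 153 FPKM at stage I (interaction 2.42 ± 0.20, adjusted p = 1.3e-04), and dnajb9a moved in the same directions (interaction 2.65 ± 0.43, adjusted p = 0.0029). Outside that list, tgfbr2b, a receptor of the TGF-beta pathway, stood at 31.6 and 38.4 FPKM in mutant stage II and 12.7 and 11.5 FPKM in mutant stage I oocytes. WT libraries held 23 and 22.1 FPKM at stage II and 35.1 and 28.3 FPKM at stage I (interaction 1.92 ± 0.19, adjusted p = 3.1e-04). msmo1, of cholesterol synthesis, stood at 2.46 and 3.59 FPKM in mutant stage II and 1.42 and 0.809 FPKM in mutant stage I oocytes. WT libraries held 1.42 and 1.04 FPKM at stage II and 6.09 and 4.49 FPKM at stage I (interaction 2.42 ± 0.32, adjusted p = 0.0013). adrm1, a ubiquitin receptor of the proteasome, stood at 83.7 and 87.7 FPKM in mutant stage II and 48.5 and 45.98 FPKM in mutant stage I oocytes. WT libraries held 47.3 and 47.4 FPKM at stage II and 72.9 and 74.5 FPKM at stage I (interaction 1.47 ± 0.09, adjusted p = 3.5e-05), and in psmb5, a catalytic subunit, the stage change was reversed the other way (interaction -1.78 ± 0.14, adjusted p = 1.1e-04). ctsc, a lysosomal protease, (interaction 1.17 ± 0.12, adjusted p = 3.9e-04) and ipo9, an importin, (interaction 1.40 ± 0.16, adjusted p = 6.4e-04) were reversed with smaller values. All of these named genes were reversed in the 3 scalings.

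Genes whose WT change was lost divide into 676 that fell in WT and 535 that rose there as deposited, 667 and 756 with median-of-ratios scaling, and 760 and 725 with quantile normalization. magoh (ENSDARG00000038635), a core protein of the exon junction complex, fell in WT: it stood at 9.005 and 7.49 FPKM in mutant stage II and 5.88 and 7.08 FPKM in mutant stage I oocytes. WT libraries held 6.91 and 8.89 FPKM at stage II and 332 and 321 FPKM at stage I (interaction 5.52 ± 0.20, adjusted p = 1.6e-06). WT stage I was high and the other 3 groups were low. dnajc9, a chaperone of histones, stood at 142 and 143 FPKM in mutant stage II and 137 and 131 FPKM in mutant stage I oocytes. WT libraries held 40.8 and 33.3 FPKM at stage II and 205 and 204 FPKM at stage I (interaction 2.53 ± 0.13, adjusted p = 1.2e-05). riok2, a kinase of ribosome assembly, stood at 38.2 and 37.6 FPKM in mutant stage II and 42.4 and 45.5 FPKM in mutant stage I oocytes. WT libraries held 10.6 and 14.3 FPKM at stage II and 75.03 and 76.8 FPKM at stage I (interaction 2.32 ± 0.18, adjusted p = 8.9e-05). marcksl1a stood at 4.93 and 7.07 FPKM in mutant stage II and 7.09 and 6.58 FPKM in mutant stage I oocytes. WT libraries held 0.256 and 0.936 FPKM at stage II and 9.88 and 8.35 FPKM at stage I (interaction 2.51 ± 0.34, adjusted p = 0.0014). uck2a, a uridine-cytidine kinase, stood at 27.5 and 36.6 FPKM in mutant stage II and 11.3 and 35.2 FPKM in mutant stage I oocytes. WT libraries held 36.3 and 36.3 FPKM at stage II and 122 and 119 FPKM at stage I (interaction 2.34 ± 0.58, adjusted p = 0.017), but the call missed the threshold without any 1 of mutant stage II replicate 2, WT stage II replicate 1, WT stage II replicate 2 or WT stage I replicate 1 (interaction 1.56 to 3.12 with 1 library left out, adjusted p up to 0.062). In dnajc9, riok2 and marcksl1a WT stage II was the lowest group. The class of riok2 was smaller rather than lost with both other scalings, that of dnajc9 with median-of-ratios scaling and that of marcksl1a with quantile normalization.

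Lost rises were of similar size. oscp1a stood at 30.8 and 34.95 FPKM in mutant stage II and 29.3 and 31.6 FPKM in mutant stage I oocytes. WT libraries held 9.38 and 12.8 FPKM at stage II and 0.105 and 0 FPKM at stage I (interaction -3.40 ± 0.23, adjusted p = 4.4e-05). nlrc3, of the NLR family of innate immunity, stood at 38.4 and 43.8 FPKM in mutant stage II and 35.9 and 29.1 FPKM in mutant stage I oocytes. WT libraries held 16.03 and 11.9 FPKM at stage II and 0.165 and 0.1004 FPKM at stage I (interaction -3.38 ± 0.24, adjusted p = 6.0e-05). mid2, a microtubule-associated ubiquitin ligase gene, stood at 7.62 and 9.06 FPKM in mutant stage II and 8.48 and 8.35 FPKM in mutant stage I oocytes. WT libraries held 10.6 and 10.8 FPKM at stage II and 0.503 and 0.649 FPKM at stage I (interaction -2.91 ± 0.20, adjusted p = 5.5e-05). The change of mid2 was reversed rather than lost with both other scalings. In oscp1a, nlrc3 and mid2, mutant libraries of both stages lay within a narrow range and WT stage I lay far below them. gramd1c stood at 13.5 and 0.243 FPKM in mutant stage II and 20.02 and 18.4 FPKM in mutant stage I oocytes. WT libraries held 21.9 and 8.51 FPKM at stage II and 0.124 and 0.193 FPKM at stage I (interaction -5.92 ± 1.36, adjusted p = 0.012). Its mutant stage II libraries were far apart, with 1 of them near 0, and its change was reversed with both other scalings. The call on gramd1c missed the threshold with no filter and with a robust prior (adjusted p up to 0.069). wee2, the kinase that keeps oocytes arrested by inhibiting Cdk1, stood at 15.7 and 15.9 FPKM in mutant stage II and 37.2 and 43.8 FPKM in mutant stage I oocytes. WT libraries held 49.4 and 55.3 FPKM at stage II and 4.901 and 29.6 FPKM at stage I (interaction -3.29 ± 0.86, adjusted p = 0.021), and the call missed the threshold without any 1 of mutant stage II replicate 1, mutant stage II replicate 2, mutant stage I replicate 1, mutant stage I replicate 2, WT stage II replicate 1 or WT stage II replicate 2 (interaction -4.47 to -2.10 with 1 library left out). It also missed with no filter and with a robust prior (adjusted p up to 0.094). The mutant change of wee2 was -1.30 on the log2 scale and was not called (adjusted p = 0.094). With median-of-ratios scaling neither of its stage changes was called.

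**Figure D4:**
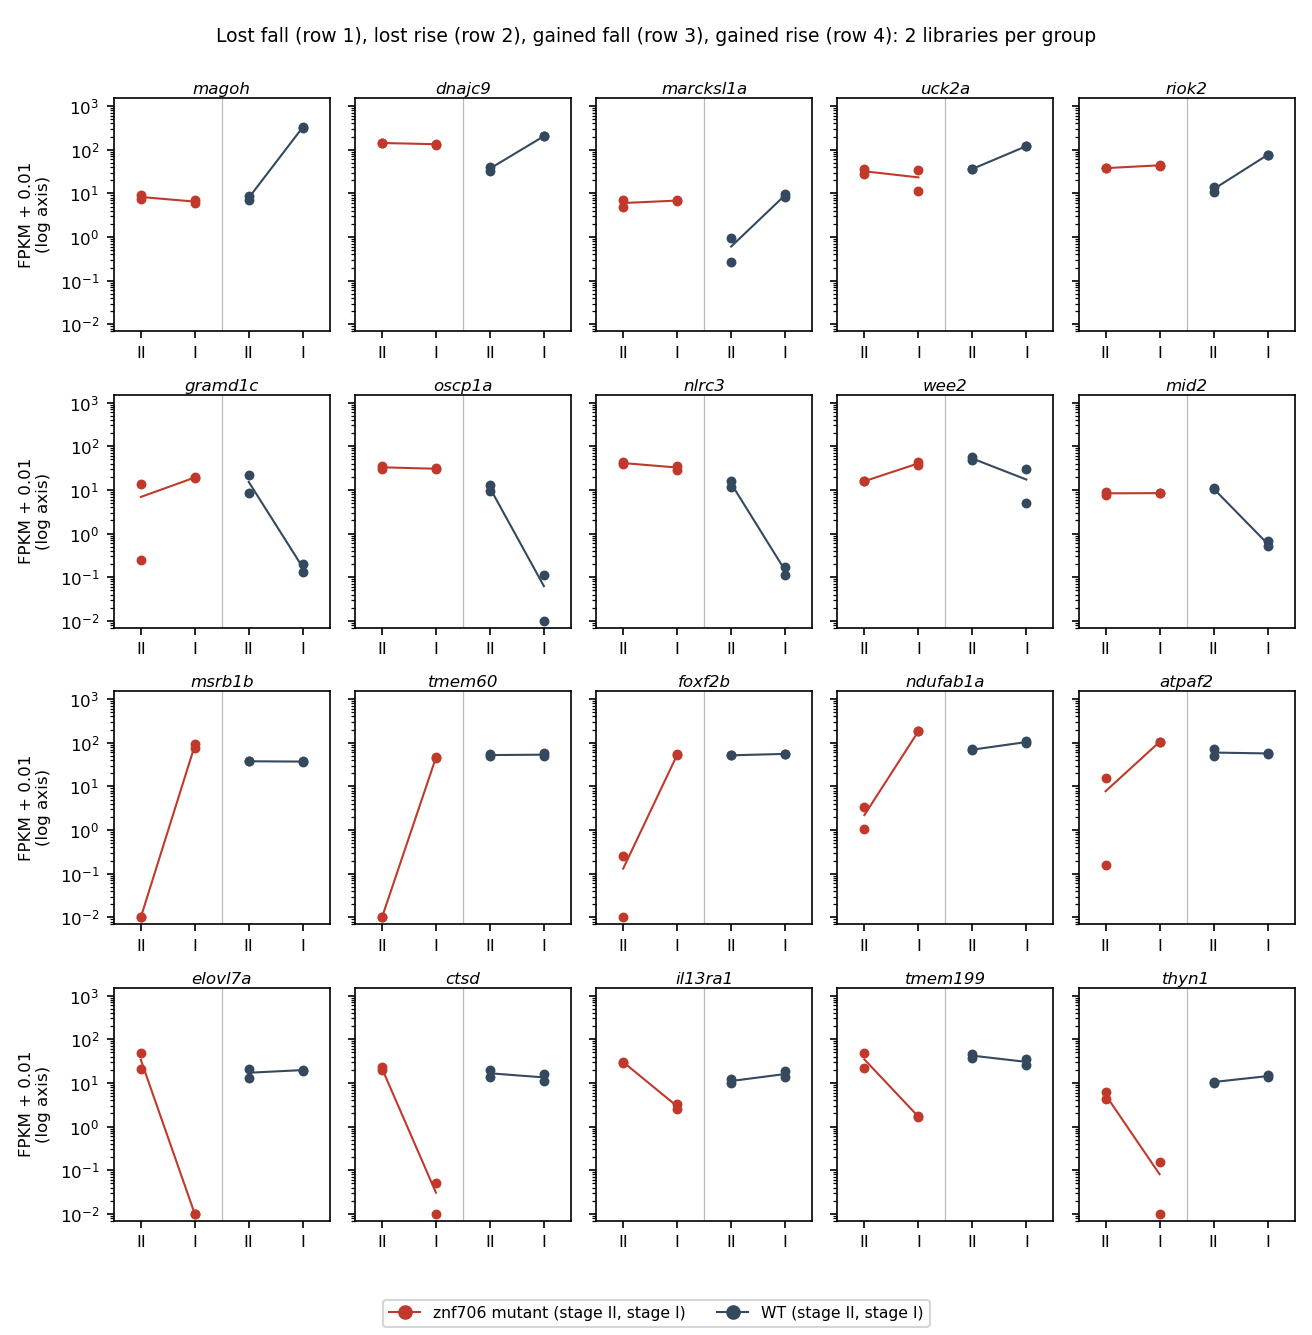
FPKM + 0.01 (log axis) of 20 lost and gained genes, as in the plot of reversed genes. They are the 5 largest interactions for each of lost falls, lost rises, gained falls and gained rises. Only named genes with at least 5 FPKM in a group of each genotype were ranked, so genes such as qdprb2 and ncapg are not drawn. Mutant stage I and II lie close together for lost genes such as magoh and oscp1a, and WT stage I and II for gained genes such as msrb1b and ctsd.

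Gained changes were 1260 rises and 452 falls as deposited, 754 rises and 799 falls with median-of-ratios scaling, and 858 rises and 701 falls with quantile normalization. The gained falls included genes listed at 0 in mutant stage II. msrb1b (ENSDARG00000045160), a methionine sulfoxide reductase, stood at 0 and 0 FPKM in mutant stage II and 95.4 and 77.1 FPKM in mutant stage I oocytes. WT libraries held 37.4 and 37.9 FPKM at stage II and 36.6 and 37.4 FPKM at stage I (interaction -6.46 ± 0.16, adjusted p = 2.7e-07). tmem60 stood at 0 and 0 FPKM in mutant stage II and 48 and 43.7 FPKM in mutant stage I oocytes. WT libraries held 54.2 and 50.3 FPKM at stage II and 56.8 and 49.7 FPKM at stage I (interaction -5.52 ± 0.15, adjusted p = 3.4e-07). foxf2b, a forkhead factor, stood at 0 and 0.242 FPKM in mutant stage II and 52 and 53.9 FPKM in mutant stage I oocytes. WT libraries held 51.5 and 51.5 FPKM at stage II and 56.01 and 55.1 FPKM at stage I (interaction -5.49 ± 0.16, adjusted p = 5.6e-07). In these 3 genes mutant stage II was at or near 0 while the other 3 groups were expressed. ndufab1a, the mitochondrial acyl carrier protein, stood at 1.06 and 3.33 FPKM in mutant stage II and 184 and 182 FPKM in mutant stage I oocytes. WT libraries held 68.6 and 70.1 FPKM at stage II and 99.7 and 108 FPKM at stage I (interaction -5.37 ± 0.40, adjusted p = 7.3e-05). Like that of foxf2b, its change was larger rather than gained with median-of-ratios scaling. atpaf2, an assembly factor of ATP synthase, stood at 0.148 and 15.3 FPKM in mutant stage II and 107 and 102 FPKM in mutant stage I oocytes. WT libraries held 48.7 and 70.5 FPKM at stage II and 57.7 and 56.03 FPKM at stage I (interaction -4.65 ± 1.39, adjusted p = 0.034), with the mutant stage II libraries far apart, and the call missed the threshold without any 1 of mutant stage I replicate 1, mutant stage I replicate 2, WT stage II replicate 1, WT stage II replicate 2, WT stage I replicate 1 or WT stage I replicate 2 (interaction -6.56 to -2.73 with 1 library left out, adjusted p up to 0.097).

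Among gained rises, ctsd, the lysosomal protease cathepsin D, stood at 19.6 and 23.1 FPKM in mutant stage II and 0 and 0.0412 FPKM in mutant stage I oocytes. WT libraries held 19.3 and 13.8 FPKM at stage II and 15.7 and 11.03 FPKM at stage I (interaction 4.16 ± 0.30, adjusted p = 6.2e-05). elovl7a, an elongase of fatty acids, stood at 20.5 and 47.3 FPKM in mutant stage II and 0 and 0 FPKM in mutant stage I oocytes. WT libraries held 21.2 and 12.96 FPKM at stage II and 19.2 and 20.1 FPKM at stage I (interaction 5.24 ± 0.51, adjusted p = 2.7e-04). In both genes mutant stage I was at or near 0 and the other 3 groups were expressed. il13ra1, a cytokine receptor gene, stood at 30.9 and 28.99 FPKM in mutant stage II and 3.33 and 2.48 FPKM in mutant stage I oocytes. WT libraries held 9.71 and 12.4 FPKM at stage II and 18.4 and 13.6 FPKM at stage I (interaction 3.49 ± 0.26, adjusted p = 8.0e-05). tmem199 stood at 21.5 and 47.6 FPKM in mutant stage II and 1.66 and 1.696 FPKM in mutant stage I oocytes. WT libraries held 46.1 and 38.1 FPKM at stage II and 34.7 and 25.9 FPKM at stage I (interaction 3.15 ± 0.45, adjusted p = 0.0017). thyn1 stood at 4.24 and 6.34 FPKM in mutant stage II and 0 and 0.142 FPKM in mutant stage I oocytes. WT libraries held 10.8 and 10.2 FPKM at stage II and 13.6 and 15.01 FPKM at stage I (interaction 2.95 ± 0.27, adjusted p = 2.0e-04). il13ra1 and thyn1 were reversed rather than gained with both other scalings.

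Some genes were present in only some of the 4 groups, by a definition of at least 5 FPKM in both libraries against under 0.5 FPKM in both. Near 0 in mutant stage II alone were 30 genes, in mutant stage I alone 11, in WT stage II alone 5 and in WT stage I alone 9. Interactions were called for all of these, which largely follows from the definition. Patterns that followed stage or genotype alone had fewer calls. These were 2 of 7 genes high only at stage II in both genotypes and 0 of 1 high only at stage I. Calls were made for 4 of 9 genes high only in mutants and 5 of 8 high only in WT. High in WT stage II alone were 11 genes, in WT stage I alone 9, in mutant stage I alone 8 and in mutant stage II alone 1. A crossed pattern, high in mutant stage I and WT stage II and near 0 in the other 2 groups, held for 6 genes, gtf3ab, thumpd3 and prmt7 among them. The opposite crossing held for 1 gene. qdprb2 (ENSDARG00000090118), a dihydropteridine reductase gene, stood at 0 and 0 FPKM in mutant stage II and 0.0741 and 0.072 FPKM in mutant stage I oocytes. WT libraries held 0 and 0.0778 FPKM at stage II and 199.8 and 218 FPKM at stage I (interaction 7.56 ± 0.20, adjusted p = 2.9e-07). ncapg, a condensin subunit, stood at 0.0207 and 0.0459 FPKM in mutant stage II and 0 and 0.0207 FPKM in mutant stage I oocytes. WT libraries held 0.0179 and 0 FPKM at stage II and 51.7 and 45.7 FPKM at stage I (interaction 5.65 ± 0.20, adjusted p = 1.3e-06). WT stage I was high in both, and the counting of qdprb2 is uncertain because a second gene has its name. That second gene stood at 18.6 and 16.4 FPKM in mutant stage II and 72.3 and 67.5 FPKM in mutant stage I. Its WT libraries held 45.5 and 13.2 FPKM at stage II and 1102 and 1225 FPKM at stage I (interaction 3.56 ± 0.63, adjusted p = 0.0042). It fell in both genotypes, less in mutants, so the near-0 levels of qdprb2 hold for the 1 gene ID only. micos13, a subunit of the mitochondrial contact site complex, stood at 0 and 0 FPKM in mutant stage II and 0.123 and 0 FPKM in mutant stage I oocytes. WT libraries held 20.8 and 21.2 FPKM at stage II and 0 and 0 FPKM at stage I (interaction -4.54 ± 0.20, adjusted p = 4.1e-06). sec11a, a signal peptidase subunit, stood at 0 and 0 FPKM in mutant stage II and 0 and 0.0808 FPKM in mutant stage I oocytes. WT libraries held 24.5 and 18.1 FPKM at stage II and 0.0825 and 0 FPKM at stage I (interaction -4.46 ± 0.25, adjusted p = 1.5e-05). mif4gda stood at 0 and 0 FPKM in mutant stage II and 0 and 0.123 FPKM in mutant stage I oocytes. WT libraries held 19.4 and 13.1 FPKM at stage II and 0.0603 and 0.245 FPKM at stage I (interaction -3.97 ± 0.28, adjusted p = 6.2e-05). For these 3 genes WT stage II was the high group. kcnn1b, a potassium channel gene, was high in mutant stage I alone, at 0.226 and 0.364 FPKM in mutant stage II and 15.2 and 16.02 FPKM in mutant stage I oocytes. WT libraries held 0.0905 and 0 FPKM at stage II and 0.262 and 0.134 FPKM at stage I (interaction -3.49 ± 0.21, adjusted p = 2.4e-05). galnt18b, a glycosyltransferase gene, was highest in mutant stage II, at 14.9 and 12.3 FPKM in mutant stage II and 0.326 and 0.386 FPKM in mutant stage I oocytes. WT libraries held 0.0494 and 0.596 FPKM at stage II and 0.357 and 0.413 FPKM at stage I (interaction 3.52 ± 0.30, adjusted p = 1.5e-04).

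Zebrafish often keep duplicated genes, and the second copy of several named genes was looked up after the values were seen, by the letters a and b of the symbols, which can also pair separate genes. birc5b, a survivin gene, stood at 0 and 0 FPKM in mutant stage II and 0.549 and 0.182 FPKM in mutant stage I oocytes. WT libraries held 11.8 and 14.8 FPKM at stage II and 573 and 689 FPKM at stage I (interaction 5.03 ± 0.25, adjusted p = 9.5e-06). birc5a stood at 90.05 and 102 FPKM in mutant stage II and 143 and 116 FPKM in mutant stage I oocytes. WT libraries held 89.6 and 84.8 FPKM at stage II and 111 and 109 FPKM at stage I (interaction -0.08 ± 0.15, adjusted p = 0.69). eif1axb, a translation initiation factor, stood at 0.389 and 0.829 FPKM in mutant stage II and 154 and 130.2 FPKM in mutant stage I oocytes. WT libraries held 1.45 and 1.83 FPKM at stage II and 0.589 and 0.616 FPKM at stage I (interaction -7.20 ± 0.26, adjusted p = 1.4e-06). eif1axa stood at 225 and 242 FPKM in mutant stage II and 373 and 343 FPKM in mutant stage I oocytes. WT libraries held 212 and 206 FPKM at stage II and 175 and 169 FPKM at stage I (interaction -0.89 ± 0.10, adjusted p = 5.7e-04), and its change was reversed too. ndufab1b (interaction -0.22 ± 0.10, adjusted p = 0.13), nck1b (interaction -0.02 ± 0.21, adjusted p = 0.94) and uck2b (interaction 0.01 ± 0.10, adjusted p = 0.95) had no called interaction. For birc5, ndufab1, nck1 and uck2 the copy without a called interaction was expressed in all 4 groups. Other partners did have called interactions. marcksl1b gained a rise (interaction 1.69 ± 0.22, adjusted p = 0.0012). msrb1a lost its WT fall (interaction 0.94 ± 0.22, adjusted p = 0.013), opposite in sign to msrb1b, and galnt18a lost its WT rise (interaction -1.27 ± 0.25, adjusted p = 0.007), opposite in sign to galnt18b. prpf38b lost its WT rise (interaction -0.32 ± 0.10, adjusted p = 0.037).

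Germ plasm genes varied in class. Of 36 tested members of the Balbiani body and germ plasm list, 4 had a higher and 9 a lower interaction, against 23.3% and 13.0% of all genes, with a median of 0.07, against 0.14 over all genes. ca15b, a carbonic anhydrase gene, fell in both genotypes and more in mutants, at 339 and 377 FPKM in mutant stage II and 1748 and 1759 FPKM in mutant stage I oocytes. WT libraries held 469 and 439 FPKM at stage II and 1041 and 868 FPKM at stage I (interaction -1.23 ± 0.15, adjusted p = 7.1e-04). buc, the Bucky ball gene that organises the Balbiani body, stood at 629 and 582 FPKM in mutant stage II and 876 and 970.4 FPKM in mutant stage I oocytes. WT libraries held 439 and 497 FPKM at stage II and 1061 and 1009 FPKM at stage I (interaction 0.54 ± 0.13, adjusted p = 0.015), but the call missed the threshold without any 1 of mutant stage II replicate 1 or WT stage I replicate 1 (interaction 0.45 to 0.63 with 1 library left out, adjusted p up to 0.058). It also missed with median-of-ratios scaling and with a replicate block within genotype (adjusted p up to 0.11). nanos3, a translational regulator of germ cells, stood at 146 and 145 FPKM in mutant stage II and 352 and 337 FPKM in mutant stage I oocytes. WT libraries held 44.03 and 41.4 FPKM at stage II and 77.8 and 79.8 FPKM at stage I (interaction -0.37 ± 0.09, adjusted p = 0.016), and the call missed the threshold without any 1 of mutant stage II replicate 1 or mutant stage II replicate 2 (interaction -0.41 to -0.32 with 1 library left out, adjusted p up to 0.057). It also missed with quantile normalization, with no trend in the prior and with a replicate block within genotype (adjusted p up to 0.69). dazl, an RNA-binding translational activator, fell in mutants, at 42.7 and 38.5 FPKM in mutant stage II and 79.3 and 89.9 FPKM in mutant stage I oocytes. WT libraries held 49.3 and 53.8 FPKM at stage II and 62.3 and 58.9 FPKM at stage I (interaction -0.81 ± 0.13, adjusted p = 0.0029). Its WT fall was called with both other scalings, so the fall was gained as deposited and larger with those. dnd1, which protects germ cell mRNA from microRNAs, stood at 41.6 and 38.8 FPKM in mutant stage II and 58.6 and 63.99 FPKM in mutant stage I oocytes. WT libraries held 72.2 and 67.7 FPKM at stage II and 60.6 and 66.8 FPKM at stage I (interaction -0.73 ± 0.12, adjusted p = 0.0031). tdrd7a, a Tudor protein of germ granules, stood at 67.3 and 66.1 FPKM in mutant stage II and 51.8 and 62.4 FPKM in mutant stage I oocytes. WT libraries held 67.8 and 77.2 FPKM at stage II and 40.2 and 38.1 FPKM at stage I (interaction -0.64 ± 0.15, adjusted p = 0.012). grip2a, whose product acts in dorsal axis formation, had a gained fall (interaction -1.20 ± 0.19, adjusted p = 0.0024). The interaction of ddx4 was 0.50, of piwil1 0.07 and of tdrd6 0.22, and none of these was called. The interaction of ddx4 passed without WT stage I replicate 2 (0.72, adjusted p = 0.0039), with a mean of at least 5 FPKM (adjusted p = 0.049) and with a robust prior (adjusted p = 0.047).

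Growth factors and transcription factors of the oocyte were mixed. gdf9, a TGF-beta ligand secreted by oocytes, stood at 66.5 and 63.3 FPKM in mutant stage II and 65.7 and 66.5 FPKM in mutant stage I oocytes. WT libraries held 42.3 and 38.8 FPKM at stage II and 73.6 and 62.5 FPKM at stage I (interaction 0.70 ± 0.13, adjusted p = 0.0052). bmp15, its partner, stood at 188 and 186 FPKM in mutant stage II and 149 and 159.8 FPKM in mutant stage I oocytes. WT libraries held 171 and 172 FPKM at stage II and 179 and 168 FPKM at stage I (interaction 0.29 ± 0.09, adjusted p = 0.042), and the call missed the threshold without any 1 of mutant stage II replicate 1, mutant stage II replicate 2, mutant stage I replicate 1, WT stage II replicate 1, WT stage II replicate 2 or WT stage I replicate 1 (interaction 0.24 to 0.35 with 1 library left out, adjusted p up to 0.11). It also missed with no filter, median-of-ratios scaling, a prior with no trend and both replicate blocks (adjusted p up to 0.46). figla, which activates egg coat genes, had an interaction of -0.35 that was not called as deposited and was called with median-of-ratios scaling (-0.57, adjusted p = 0.028) and a pseudocount of 5 (-0.46, adjusted p = 0.04). pou5f3, an activator of the zygotic genome, stood at 31.5 and 27.7 FPKM in mutant stage II and 20.8 and 29.8 FPKM in mutant stage I oocytes. WT libraries held 10.02 and 10.6 FPKM at stage II and 20.97 and 20.4 FPKM at stage I (interaction 1.17 ± 0.22, adjusted p = 0.006), and nr6a1a fell in both genotypes, less in mutants (interaction 1.30 ± 0.30, adjusted p = 0.013). eomesa, a T-box factor, lost its WT rise (interaction -1.03 ± 0.12, adjusted p = 6.8e-04) and was reversed with the other scalings. Of 25 genes listed as maternal activators of the zygotic genome, 2 were higher (8%) and 8 lower (32%), against 23.3% and 13.0% of all genes, with a median of -0.16, against 0.14. The list also takes in genes of the dorsal axis, so these shares do not describe genome activators alone. hwa, the maternal dorsal determinant, was among the lower members, with a gained fall (interaction -0.99 ± 0.17, adjusted p = 0.0042), and so was grip2a.

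Egg coat and cytosolic ribosomal genes had the lowest medians among the lists of pathways and complexes. Of 24 zona pellucida genes, 3 were higher (12.5%) and 8 lower (33.3%) (median -0.26, against 0.14 over all genes). zp2.1 stood at 79.5 and 68.3 FPKM in mutant stage II and 630.0 and 571 FPKM in mutant stage I oocytes. WT libraries held 327 and 207 FPKM at stage II and 266 and 372 FPKM at stage I (interaction -2.74 ± 0.32, adjusted p = 6.3e-04). zp3d.2 moved in the opposite sense (interaction 1.01 ± 0.12, adjusted p = 6.4e-04). Of 82 cytosolic ribosomal proteins, 2 were higher (2.44%, against 23.3% of all genes) and 12 lower (14.6%, near the 13.0% of all genes), with a median of -0.26. 4 of these lower calls were kept in all 3 scalings (4.88% of the list, against 12.4% of all genes). Most of this family fell with stage in both genotypes, 69 genes in mutants and 58 in WT. rps25 stood at 438 and 479.7 FPKM in mutant stage II and 1329.8 and 1269.8 FPKM in mutant stage I oocytes. WT libraries held 699.7 and 566 FPKM at stage II and 913 and 1143 FPKM at stage I (interaction -0.80 ± 0.19, adjusted p = 0.014). For translation factors 12 of 74 were higher (16.2%) and 19 lower (25.7%), against 23.3% and 13.0% of all genes. Of the lower calls 18 were kept in all 3 scalings (24.3% of the list, against 12.4% of all genes), and these shares were not tested.

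**Figure D5:**
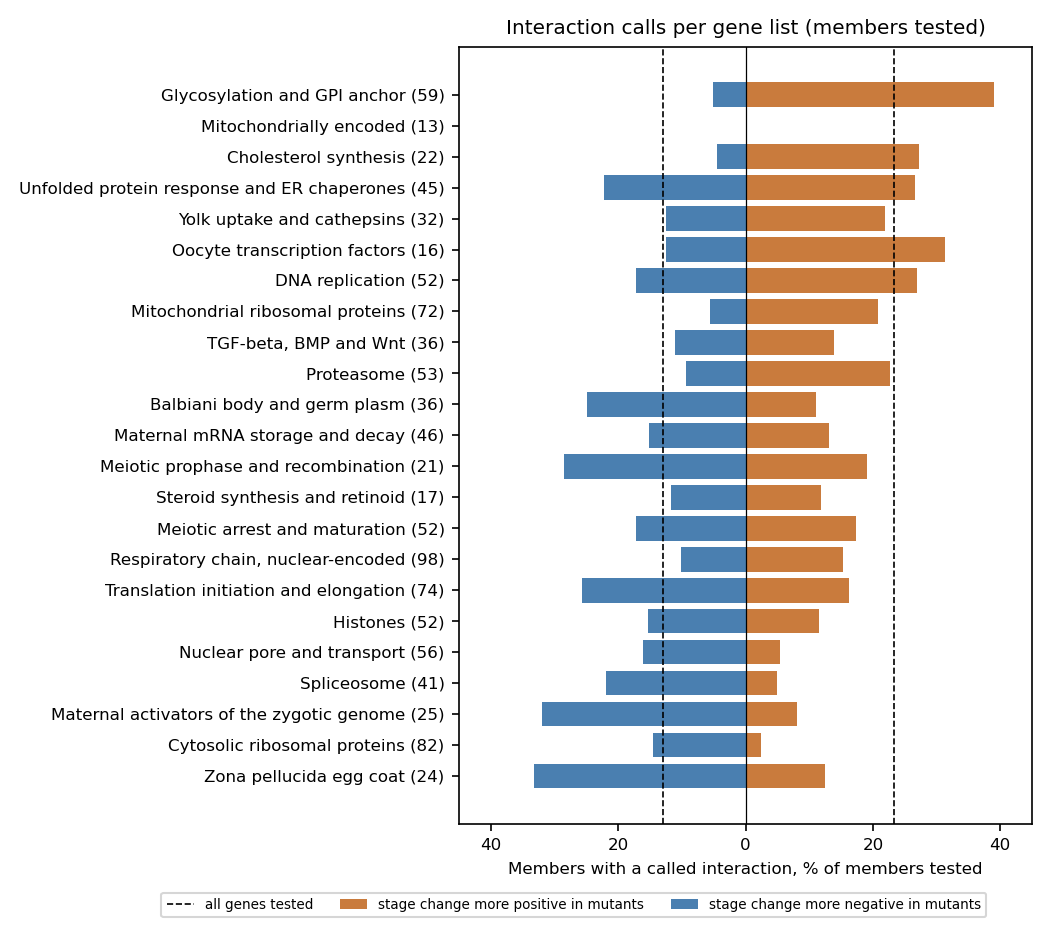
Percent of the tested members of each list of pathways and complexes (marker lists of cell types left out) with a called interaction, more positive in mutants (right) or more negative (left), ordered by median interaction. Dashed lines mark all genes tested (23.3% and 13.0%). Of the lists drawn, glycosylation reaches farthest to the right, at 39%.

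Of 59 glycosylation and GPI anchor genes, 23 were higher (39%) and 3 lower (5.08%), against 23.3% and 13.0% of all genes, with a median of 0.33, against 0.14. Of the higher calls 15 were kept in all 3 scalings (25.4% of the list, against 16.6% of all genes), and these shares were not tested. Besides alg14, pigl lost its WT fall, at 5.63 and 5.25 FPKM in mutant stage II and 4.43 and 3.98 FPKM in mutant stage I oocytes. WT libraries held 4.11 and 2.61 FPKM at stage II and 13.97 and 11.99 FPKM at stage I (interaction 2.01 ± 0.27, adjusted p = 0.0012). For unfolded protein response genes, 12 of 45 were higher (26.7%) and 10 lower (22.2%), against 23.3% and 13.0% of all genes. p4hb, protein disulfide isomerase, stood at 54.7 and 77.5 FPKM in mutant stage II and 668 and 691 FPKM in mutant stage I oocytes. WT libraries held 147 and 122 FPKM at stage II and 233 and 207 FPKM at stage I (interaction -2.65 ± 0.22, adjusted p = 1.4e-04). Of 52 DNA replication genes 14 were higher (26.9%) and 9 lower (17.3%), near the shares of all genes. gins4, of the replicative helicase, rose more in mutants, at 77.1 and 81.8 FPKM in mutant stage II and 14.9 and 15.9 FPKM in mutant stage I oocytes. WT libraries held 53.2 and 51.7 FPKM at stage II and 36.4 and 28.4 FPKM at stage I (interaction 1.61 ± 0.16, adjusted p = 3.5e-04), chaf1a, of chromatin assembly, gained a rise (interaction 1.59 ± 0.19, adjusted p = 7.3e-04), and orc1, of the origin recognition complex, lost its WT rise (interaction -0.91 ± 0.18, adjusted p = 0.0064), which was reversed with median-of-ratios scaling. Meiotic genes had 4 higher (19%) and 6 lower (28.6%) of 21 tested.

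Of the 13 mitochondrially encoded genes, 0 had a called interaction by limma and 1 had an unadjusted p under 0.05, while 12 rose with stage in each genotype. Nuclear-encoded respiratory chain genes had 15 higher (15.3%) and 10 lower (10.2%) of 98 tested, and mitochondrial ribosomal proteins 15 higher (20.8%) and 4 lower (5.56%) of 72, against 23.3% and 13.0% of all genes. mrpl23 stood at 52.9 and 58.03 FPKM in mutant stage II and 56.7 and 47.3 FPKM in mutant stage I oocytes. WT libraries held 18.7 and 16.6 FPKM at stage II and 61.9 and 66.6 FPKM at stage I (interaction 1.90 ± 0.15, adjusted p = 1.2e-04). mrps31 was near 0 in mutants at both stages, at 0 and 0 FPKM in mutant stage II and 0.0398 and 0 FPKM in mutant stage I oocytes. WT libraries held 0.841 and 1.46 FPKM at stage II and 35.4 and 34.4 FPKM at stage I (interaction 4.05 ± 0.24, adjusted p = 2.4e-05). Of 41 spliceosome genes 2 were higher (4.88%) and 9 lower (22%), and of 56 nuclear pore and transport genes 3 were higher (5.36%) and 9 lower (16.1%), the last near the 13.0% of all genes.

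Most markers of other ovarian cells were low, with exceptions. Of 20 granulosa and theca markers found, 14 stayed under 1 FPKM in every library, fshr was listed at 0 in all 8, and their summed level was 12.7 and 19.8 FPKM in mutant stage II, 27.7 and 24.4 in mutant stage I, 12.7 and 11.8 in WT stage II and 30.3 and 23.5 in WT stage I. Leukocyte markers without arhgdig and rac2 summed to 16.6 and 20.1 FPKM in mutant stage II, 25.3 and 23.0 in mutant stage I, 4.78 and 6.33 in WT stage II and 6.88 and 8.23 in WT stage I, so both mutant groups exceeded both WT groups. arhgdig, which accounts for much of the sum of that list, was itself high in mutant stage I, at 35.5 and 33.8 FPKM in mutant stage II and 143 and 121 FPKM in mutant stage I oocytes. WT libraries held 20.2 and 19.9 FPKM at stage II and 32.2 and 27.6 FPKM at stage I (interaction -1.34 ± 0.15, adjusted p = 5.5e-04). Of the 24 leukocyte markers found, 13 stayed under 1 FPKM in every library, ptprc (at most 0.238 FPKM) among them. Others reached more, each at its highest in a mutant library: cd74a 5.95 FPKM, cd74b 4.92, coro1a 3.84, zap70 3.35, rag2 3.16 and cd4-1 2.53. Blood markers summed to 41.5 and 40.7 FPKM in mutant stage II, 65.6 and 60.7 in mutant stage I, 57.7 and 55.9 in WT stage II and 49.6 and 53.0 in WT stage I. Most of each sum was tspo alone, at 32.4 and 29.9 FPKM in mutant stage II and 60.9 and 53.7 in mutant stage I. Its WT libraries held 52.7 and 51.7 FPKM at stage II and 44.55 and 48.2 at stage I, so the sums describe tspo more than blood. Of the single markers, epcam, an epithelial adhesion gene of the stroma list, ran from 1628 to 2657 FPKM over the libraries, and rac2 and tspo, of the leukocyte and blood lists, reached 32.0 and 60.9 FPKM. Stroma, muscle and endothelium markers without epcam summed to 13.0 to 16.9 FPKM in all libraries, but single members moved in opposite senses. Called interactions were lower for fn1a (-1.21), col1a1a (-1.14) and kdrl (-1.06) and higher for krt8 (1.67). Interactions were called for 80% of 5 tested granulosa and theca markers and for 76.9% of 13 tested oocyte markers, against 36.4% of all genes. They were called for 50% each of the 10 leukocyte, 4 blood and 8 stroma markers tested, a description with no test. The granulosa and theca calls were higher for wt1b (1.16), krt18a.1 (1.19) and foxl2b (0.87) and lower for gsdf (-1.72). Each of these calls missed the threshold with no filter and was among those lost when single libraries were left out. The part of these cells in the results above was not tested.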

How the data were processed

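The submitters' processing notes name Trim Galore, STAR 2.5.3a, Cufflinks 2.2.1 and the genome build danRer11. The authors deposited FPKM per gene in 1 merged table of 32197 entries and 32055 gene IDs, and read counts were not used here. Exact duplicates (24) were merged and 103 IDs with conflicting entries left out, leaving 31952. Absolute depth is unknown, and the relative depth read from low values ran from 0.889 to 1.035 (WT stage I replicate 1 set to 1).

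Genes reaching 1 FPKM in 2 or more libraries were fitted as log2(FPKM + 1) with limma 3.58.1 (R 4.3.3), 4 group means, a trended prior and Benjamini-Hochberg adjustment over 13862 genes. Values with ± are the estimate and its SE. The log2 scale understates changes of low genes. The fit was also run on simulated data. Their spread was shuffled over genes, which removes its link to level, so that run does not check the trended prior.

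The genes examined, the 28 gene lists and the design were chosen with earlier results of these data known. Patterns for ribosomal and GPI anchor genes were narrowed after the list counts were first seen, because they had taken in ribosomal S6 kinases, rps19bp1 and pigr, and the counts are those of the narrowed lists. Named genes (140) followed a rule: the 5 largest interactions in each sense of lost, gained and reversed genes with at least 5 FPKM in a group of each genotype and stage differences that do not overlap, without clone names, then 4 per direction with 1 genotype under 0.5 FPKM, up to 4 called genes per list, and 12 genes of the germ line. Which of these are described with values in every library was chosen after their values were seen, as were the second copies. Every named gene entered the counts of stability. 1 named gene is counted but not reported here.

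Tried instead were a pseudocount of 0.1 or 5, no filter or a mean FPKM of 5 or more, 2 other scalings, no trend or a robust prior, a replicate block, a 2-fold limit, conflicting IDs at their mean, classes by size and leaving out each library. Their use on smaller or larger changes was added after the data were seen.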

Additional observations from a re-analysis of the deposited data

Results flagged for a closer look

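The stage change of a gene was marked for a closer look wherever the test of its difference between the genotypes, the interaction, passed the threshold. This held for 135 of the 140 genes named by rule. Apart from the genes of the germ line, the rule took called genes only, so this share largely follows from the rule. The genes without a call, znf706, ddx4, piwil1, tdrd6 and figla, were all named as genes of the germ line. Of all 13862 genes tested, the interaction passed for 36.4%. By the same test the stage change was called in both genotypes with opposite signs for 805 genes in all. The classes below are those of the deposited FPKM, and 88 of the 135 called genes kept theirs in all 3 scalings. For a WT rise reversed in mutants, the log2 interactions of named genes were gtf3ab -10.66, thumpd3 -10.21, prmt7 -9.98, foxa -9.07, rad52 -9.06, rrm2 -7.87, eif1axb -7.20, zp2.6 -6.04 and zfp36l2 -5.16. In this class, eif1b -2.80, zp2.3 -2.39, psmb5 -1.78, mlh3 -1.61, ipo4 -1.31, cxcr4b -0.95, org -0.72 and sf3a2 -0.66 came next. Of these, mlh3 was gained with both other scalings. With median-of-ratios scaling org and sf3a2 were gained, and with quantile normalization org was smaller. For a WT fall reversed in mutants, the log2 interactions of named genes were cyp11a1 9.59, alg14 7.47, tdrd1 7.05, ndrg1b 6.12, nck1a 5.70, ero1a 3.18, dnajb9a 2.65, dnajb9b 2.42 and msmo1 2.42. In this class, tgfbr2b 1.92, kpna5 1.60, ccne2 1.53, adrm1 1.47, ipo9 1.40, spata22 1.39, ctsc 1.17 and cyp26a1 1.00 came next. Of these, kpna5, ccne2, spata22 and cyp26a1 were lost rather than reversed with both other scalings. For a lost WT rise, the log2 interactions of named genes were gramd1c -5.92, micos13 -4.54, sec11a -4.46, mif4gda -3.97, oscp1a -3.40, nlrc3 -3.38, wee2 -3.29, mid2 -2.91 and gsdf -1.72. In this class, mrpl2 -1.59, tgfbr1a -1.30, col1a1a -1.14, kdrl -1.06, eomesa -1.03, orc1 -0.91, prpf38a -0.80 and tdrd7a -0.64 came next. With both other scalings gsdf was gained, and gramd1c, mid2, mrpl2, tgfbr1a and eomesa were reversed. For a lost WT fall, the log2 interactions of named genes were qdprb2 7.56, ncapg 5.65, magoh 5.52, birc5b 5.03, mrps31 4.05, sh2d1aa 3.13, dnajc9 2.53, marcksl1a 2.51 and uck2a 2.34. In this class, riok2 2.32, cox4i1l 2.02, pigl 2.01, mrpl23 1.90, hist1h4l (ENSDARG00000115054) 1.87, krt8 1.67, ndufaf2 1.53, psmb9a 1.44 and terb1 1.38 came next. They were followed by cox7a1 1.19, pou5f3 1.17, wt1b 1.16, mvda 1.06, zp3d.2 1.01, zfp36l1a 0.92 and gdf9 0.70. In this class qdprb2, ncapg, mrps31, sh2d1aa, terb1 and cox7a1 stayed under 0.5 FPKM in every mutant library, and birc5b reached at most 0.549 there. For a rise gained in mutants, the log2 interactions of named genes were elovl7a 5.24, ctsd 4.16, galnt18b 3.52, il13ra1 3.49, tmem199 3.15, thyn1 2.95, smad3b 1.94 and galnt13 1.80. They were followed by ctsf 1.59, chaf1a 1.59, eif4e2 1.44, ebp 1.19, cnot6l 1.17, coro1a 1.03, foxl2b 0.87 and bmp15 0.29. For a fall gained in mutants, the log2 interactions of named genes were msrb1b -6.46, tmem60 -5.52, foxf2b -5.49, ndufab1a -5.37, atpaf2 -4.65, kcnn1b -3.49, zp2.1 -2.74 and hist1h4l (ENSDARG00000105482) -2.08. They were followed by psmb10 -1.68, eif4g2b -1.42, rangap1b -1.35, fn1a -1.21, grip2a -1.20, fdft1 -1.14, lyz -1.13 and tgfb2 -1.07. In this class, tspo -1.02, hwa -0.99, dazl -0.81, rpl3 -0.76, dnd1 -0.73, hsd17b12a -0.43 and rdh10b -0.41 came next. With quantile normalization rpl3 was lost, and hsd17b12a and rdh10b were not called. For a larger rise in mutants, the log2 interactions of named genes were gins4 1.61, dcp2 1.15 and hemgn 0.69. For a larger fall in mutants, the log2 interactions of named genes were hist1h4l (ENSDARG00000110812) -3.01, p4hb -2.65, hist1h4l (ENSDARG00000110152) -1.91, arhgdig -1.34, ca15b -1.23, rps25 -0.80, rps13 -0.54, rpl22 -0.52 and nanos3 -0.37. The gene IDs named hist1h4l differed in direction, and the counting of genes that share a name is uncertain. For a smaller rise in mutants, the log2 interactions of named genes were mrpl51 -1.46 and sf3a1 -0.72. For a smaller fall in mutants, the log2 interactions of named genes were prpf18 1.42, nr6a1a 1.30, krt18a.1 1.19, rab5b 0.91 and buc 0.54.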

How the results depend on the processing

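Of the 135 named genes with a called interaction, 114 kept it without each library in turn. The call was kept by 111 under each other setting counted and by 110 under every one of either kind, while 88 kept their class in all 3 scalings. These counts leave out the 2-fold limit and the classes by size. Most named genes were picked for large interactions, so the counts do not describe the stability of called genes at large. Named genes with an interaction under 1 in size, such as gdf9 (0.70), do not meet the 2-fold limit. A gene removed by the filter of a setting was not tested there and counts as kept. The 21 genes that lost the call, each without 2 to 7 of the libraries in turn and with an adjusted p (limma) of at most 0.133, were uck2a, wt1b, rdh10b, wee2, hsd17b12a, krt18a.1, tgfb2, rps13, bmp15, prpf38a, sf3a1, cnot6l, atpaf2, lyz, nanos3, foxl2b, rpl22, gsdf, buc, hemgn and hist1h4l (ENSDARG00000110152). Lost only under another of the settings counted were cox4i1l with a pseudocount of 0.1, mrpl51 and hist1h4l (ENSDARG00000110812) with one of 5, and gramd1c with no filter or a robust prior. Where 1 library was left out, the remaining library of that group was assumed to vary like the other groups. The totals that follow can include genes not called as deposited. Leaving out 1 library gave 3626 to 5029 interaction calls, 7730 to 9182 stage changes in mutants and 6849 to 8158 in WT, 835 to 1188 lost, 1220 to 1978 gained and 589 to 833 reversed genes, and 666 to 1057 with a smaller or larger change. With a mean of at least 5 FPKM, 791 genes were lost and 1082 gained, since fewer genes were tested. With a change of at least 2-fold, 2361 interactions, 3517 stage changes in mutants and 2725 in WT were called, with 548 lost, 833 gained and 324 smaller or larger. With classes set by size, 591 were lost and 942 gained. The sign turned for piwil1, not called as deposited, with median-of-ratios scaling (-0.13), and for nanos3 with quantile normalization (0.054), and the cause was not tested. The replicate numbers were not used as a pairing in the main fit. Differences between replicates correlated at -0.041 to 0.065 between groups. That cannot tell whether libraries of the same number came from the same fish, which the source does not say. A replicate block over all groups gave 4725 interaction calls, and a replicate block within genotype gave 4034, with 796 smaller or larger changes. Of the 5039 calls of the main fit, 4583 were kept with the block over all groups and 3922 with the block within genotype. Absolute depth is unknown from FPKM.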

Other observations

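Further genes of the lists had sizeable interactions. smad3b, a signal transducer of the TGF-beta pathway, stood at 4.81 and 6.12 FPKM in mutant stage II and 0.2799 and 0.236 FPKM in mutant stage I oocytes. WT libraries held 0.507 and 0.803 FPKM at stage II and 0.307 and 0.168 FPKM at stage I (interaction 1.94 ± 0.24, adjusted p = 8.8e-04), with mutant stage II the highest group. dcp2, the enzyme that removes the mRNA cap, stood at 68.4 and 59.8 FPKM in mutant stage II and 16.6 and 13.3 FPKM in mutant stage I oocytes. WT libraries held 60.2 and 59.3 FPKM at stage II and 36.5 and 27.8 FPKM at stage I (interaction 1.15 ± 0.21, adjusted p = 0.0048), rising with stage in both genotypes. psmb10, a proteasome subunit, stood at 10.2 and 12.4 FPKM in mutant stage II and 32.4 and 29.8 FPKM in mutant stage I oocytes. WT libraries held 21.4 and 24.7 FPKM at stage II and 17.03 and 20.3 FPKM at stage I (interaction -1.68 ± 0.19, adjusted p = 6.0e-04). eif4g2b, a translation factor, stood at 37.04 and 28.8 FPKM in mutant stage II and 89.1 and 92.9 FPKM in mutant stage I oocytes. WT libraries held 66.9 and 51.3 FPKM at stage II and 64.8 and 55.5 FPKM at stage I (interaction -1.42 ± 0.22, adjusted p = 0.0024). In both of these, mutant stage II was the lowest group. ebp, an isomerase of cholesterol synthesis, stood at 31 and 32.9 FPKM in mutant stage II and 14.3 and 13.01 FPKM in mutant stage I oocytes. WT libraries held 34.2 and 36.1 FPKM at stage II and 40.8 and 31.2 FPKM at stage I (interaction 1.19 ± 0.18, adjusted p = 0.0022), with mutant stage I the lowest. terb1, which tethers telomeres in meiosis, stood at 0.294 and 0.261 FPKM in mutant stage II and 0 and 0.0702 FPKM in mutant stage I oocytes. WT libraries held 0.1603 and 0.279 FPKM at stage II and 1.56 and 1.56 FPKM at stage I (interaction 1.38 ± 0.19, adjusted p = 0.0013), above 1 FPKM in WT stage I alone.

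Gene order came from a RefSeq gene table of another zebrafish assembly, matched by symbol. Of 100 placed genes with a called interaction at least 8-fold lower, 54 had an adjacent tested gene called lower as well, against 23.7% of all 11345 placed genes. Of 61 placed genes at least 8-fold higher, 35 (57.4%) had an adjacent gene called higher, against 41.7% of all placed genes. In the opposite direction, 31% of the lower genes had an adjacent gene called higher, against the same 41.7%. An adjacent gene called lower was found for 26.2% of the higher genes, against 23.7%. The 8-fold limit was chosen after the values were seen, and these shares are a description with no test.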
